A study of Danio rerio with 11 samples.

Results

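Zebrafish eyes at 60 hours post fertilization (hpf) were compared with eyes at 48 hpf by RNA sequencing. Every 48 and 60 hpf eye library of the study was taken, which gave 4 of its 11 libraries. They were 1 library of srrm3 mutant eyes and 1 of wild-type (WT) eyes at each age. Mutants carried a disrupted eMIC domain of srrm3, a gene for a splicing factor that uses this domain to include very short neuronal exons, and WT fish were their siblings, genotyped from a fin clip. Fish were kept at 28 °C under 14 h of light and 10 h of dark. Each library pooled 20 to 60 enucleated eyes of 1 genotype, per the labels' protocols, so an eye library holds retina, lens, pigment epithelium and whatever surrounding tissue stayed attached. The study also sequenced eyes at 72 hpf and 5 days, adult WT retina and WT heads at 24 hpf, and of these only the 72 hpf eyes are quoted, as context. Levels are cRPKM, a read count scaled by library depth and by a length per gene that the sources used here do not define. They are always given with the mutant library first and the WT library second.

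In the zebrafish retina, cells leave the division cycle in a fixed order, with ganglion cells first and photoreceptors, bipolar cells and glia among the last. A photoreceptor switches on fate regulators such as the Crx and Nr2e3 transcription factors before it makes opsin, the light-absorbing protein of its outer segment, and before it builds the ribbon synapse that carries its signal to bipolar cells. The lens fibres fill with crystallins over the same days, and the pigment epithelium takes up its work in the visual cycle, which returns spent chromophore to the photoreceptors.

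The 4 libraries held between 41451011 and 45570408 counts. Of 20816 genes tested, 4840 (23.3%) were higher and 4197 (20.2%) lower at 60 hpf in edgeR's quasi-likelihood test at a Benjamini-Hochberg adjusted p under 0.05, with genotype as a term. Of these, 2409 genes (11.6%) were higher and 1336 (6.42%) lower by at least 2-fold. The median log2 change of all genes tested was -0.01, and these values are the background for every gene list described here. In 7091 of the 20816 genes both 60 hpf libraries lay above both 48 hpf libraries, and in 8141 both lay below. Ages that do not overlap were thus common and do not set a gene apart. The fit has 1 residual degree of freedom, which is the difference between the genotypes in their change with age. No replicate of a genotype and age enters its error, which otherwise rests on information shared across genes. Nothing in the labels says that the libraries are independent crosses, so p-values measure the spread between these libraries. Single libraries were left out within a wider fit that adds the 72 hpf libraries, and every value given "without" a library comes from that fit. With all 6 libraries it called 4441 genes higher and 4289 lower, without the 48 hpf mutant library 2674 and 1761, and without the 48 hpf WT library 3315 and 2413. Where the wider fit with all 6 libraries already ended a call or moved a count by over 1.5 times, that is said first. Stage cannot be told apart from anything else that differed between the collections, such as time of day, since the ages lie 12 h apart and the labels give no hour of collection. Because whole eyes were pooled, fewer cells of a type and less RNA per cell cannot be told apart.

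The libraries also differed in RNA from tissue around the eye. The summed cRPKM of 64 skeletal muscle genes was 18842 and 11328 in the 48 hpf libraries and 8652 and 2479 in those of 60 hpf. That of 37 Hox genes of groups 4 to 13, which pattern hindbrain and trunk, was 206 and 162 in the former and 75.6 and 15.6 in the latter. Both sums were highest in the 48 hpf mutant library and lowest in the 60 hpf WT library. The part of this difference in the retinal results was not tested.

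**Figure D1:**
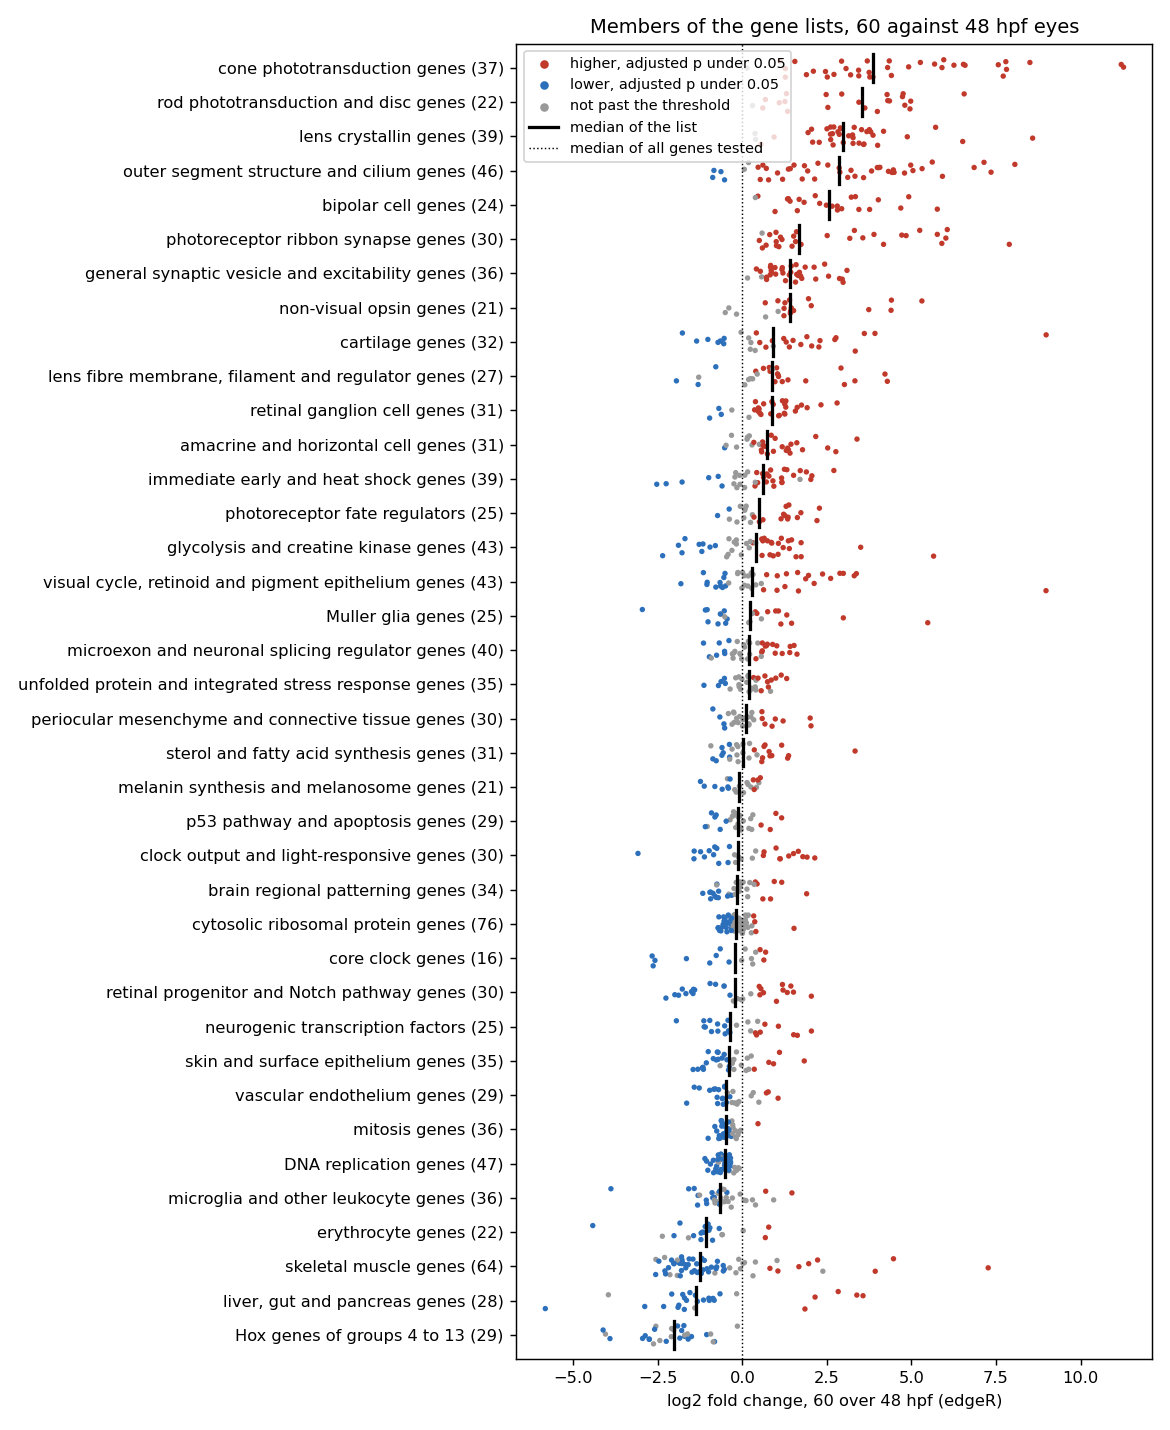
Each point is 1 gene of a list, placed by its log2 change from 48 to 60 hpf (x axis, edgeR), with the number of members tested in brackets. Red points were higher and blue points lower at an adjusted p under 0.05, black bars mark the median of each list, and the dotted line the median of all genes tested (-0.01). Cone phototransduction genes have the highest median (3.86) and Hox genes the lowest (-2.03).

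The lists of cone and rod light detection had the highest median changes of the 38 lists. Of 37 cone phototransduction genes tested, 36 were higher at 60 hpf and 0 lower, with a median log2 change of 3.86. Of 22 rod phototransduction and disc genes, 21 were higher and 0 lower, with a median of 3.53. The summed cRPKM of the cone list went from 42.8 and 50.3 at 48 hpf to 2217 and 3311 at 60 hpf. In 9 lists no member was called in 1 of the directions by edgeR; in that direction 0 of their members had an unadjusted p under 0.05, and DESeq2 called 0. At 60 hpf the cone and rod sums were higher in the WT than in the mutant library, a difference with 1 library a side and so no test.

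The 4 main cone opsins had a cRPKM of 3.67 or less at 48 hpf and of 150.0 or more 12 h later. OPN1SW, the ultraviolet-sensitive opsin, had a cRPKM of 0.17 and 0.20 at 48 hpf and of 338 and 526 at 60 hpf. The green-sensitive opsin gene opn1mw1 stood at 0.08 and 0.08, from 5 counts in each library, and then at 150.0 and 251. These were the largest rises of all genes named by size, at log2 changes of 11.20 ± 0.21 (SE, adjusted p = 6.71e-14) and 11.27 ± 0.23 (SE, adjusted p = 1.19e-13). The blue-sensitive opsin gene opn1sw2 went from 0.41 and 0.66 to 159.9 and 211, a log2 change of 8.50 ± 0.19 (SE, adjusted p = 1.42e-13). The red-sensitive opsin gene opn1lw2 was the highest of the 4 at 48 hpf, at 2.16 and 3.67, and reached 501 and 728. Its log2 change was 7.79 ± 0.17 (SE, adjusted p = 1.42e-13). In each of these genes both 60 hpf libraries lay above both 48 hpf libraries, as in 7091 of the 20816 genes tested. A further green opsin gene, opn1mw2, rose by 6.58 on the log2 scale to 9.84 and 7.81. The tandem copies opn1mw3, opn1mw4 and opn1lw1 were at a cRPKM of 0.51 or less at either age and had too few counts to test. Counts of opn1mw3 went from 1 and 2 to 19 and 7, a count ratio of 9.25 (counting interval 2.835 to 47.8). Those of opn1lw1 went from 0 and 0 to 6 and 5, at least 1.96-fold with 3 counts per library as the limit. There were 0 counts of opn1mw4 at either age. Tandem opsin copies are similar in sequence, so reads could have been shared between them.

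Genes for the proteins that pass on the opsin signal rose as well. GNGT2 ENSDARG00000103543, a transducin gamma subunit, had a cRPKM of 2.01 and 3.08 at 48 hpf and of 371 and 667 at 60 hpf, a log2 change of 7.71 ± 0.18 (SE, adjusted p = 2.05e-13). The cone transducin alpha gene GNAT2 went from 1.28 and 1.40 to 76.2 and 126, and the rod gene GNAT1 from 1.37 and 1.58 to 18.6 and 27.0. PDE6C, the cone phosphodiesterase that breaks down cGMP in light, went from 0.26 and 0.25 to 10.6 and 19.9. These 3 genes were chosen after their values were seen, and their log2 changes were 6.26, 3.99 and 5.90. RGS9 ENSDARG00000037925, which shuts transducin off, rose by 7.81 from 0.07 and 0.04 to 9.83 and 14.3. The rod arrestin gene sagb, whose product ends the light response, rose by 4.28 to 50.2 and 64.1. In the cone list the member not called was GRK7 ENSDARG00000055534, an opsin kinase gene also chosen after its values were seen, at 0.82 and 0.64 and then 0.62 and 0.94 (log2 change 0.13, adjusted p = 0.763). In the rod list it was gnb1b, a transducin beta gene used in many cell types, at 87.5 and 74.6 and then 97.5 and 94.1 (log2 change 0.30, adjusted p = 0.0585).

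**Figure D2:**
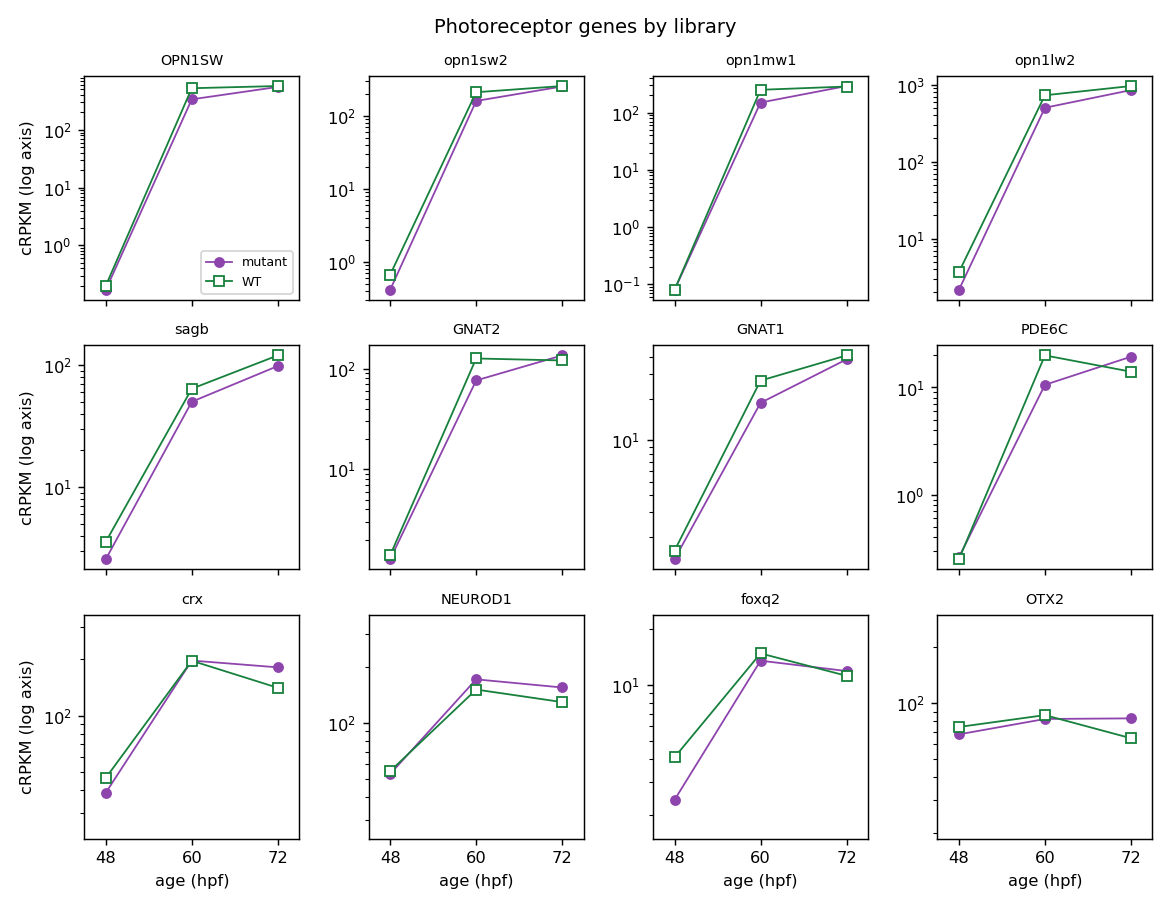
cRPKM (log axes) of 12 photoreceptor genes in each mutant (filled circles) and WT (open squares) library at 48, 60 and 72 hpf. The cone opsins, sagb, the transducins and PDE6C climb by 1 or more orders of magnitude between 48 and 60 hpf. The genes crx, NEUROD1 and foxq2 climb by less, and OTX2 does not pass the test.

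Regulators of photoreceptor fate rose less, and most stood at a higher level than the main cone opsins at 48 hpf. Of 25 tested, 14 were higher and 2 lower, with a median log2 change of 0.50. The homeobox gene crx, which activates opsin genes, had a cRPKM of 38.5 and 46.2 at 48 hpf and of 197 and 197 at 60 hpf. This 4.85-fold rise (log2 2.28 ± 0.13 SE, adjusted p = 3.51e-09) was the largest in the list. A further gene listed as CRX rose by 1.38 from 30.9 and 39.0 to 83.8 and 89.8. The bHLH gene NEUROD1 rose by 1.63, from 53.2 and 55.1 to 172 and 151.

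Several regulators of photoreceptor subtypes were among the genes called higher. The gene foxq2, a regulator of blue cones, stood at 2.41 and 4.08 and then at 13.5 and 14.8 (log2 change 2.21 ± 0.21 SE, adjusted p = 1.03e-06). The gene six7, a regulator of green cones in zebrafish, rose by 1.73 from 6.34 and 7.18 to 22.0 and 21.1. NR2E3 and nrl, rod regulators, rose by 1.34 and 1.26. TBX2 ENSDARG00000018025, of a family that guides ultraviolet cone fate in zebrafish, rose by 0.50, and TBX2 ENSDARG00000006120 by 0.34. The call of the second TBX2 gene was lost in the fit with all 6 libraries (adjusted p = 0.0748) and with DESeq2 (0.0822) and limma (0.0926 and 0.0931). Both TBX2 values missed the threshold without the 48 hpf mutant library (adjusted p = 0.264 and 0.422) and without the 48 hpf WT library (0.0922 and 0.315), and the second also without the 60 hpf WT library (0.308). THRB, the thyroid hormone receptor gene needed for red cones, gave 7.03 and 9.83 and then 8.02 and 4.66, with libraries of the ages overlapping and no call (log2 change -0.38, adjusted p = 0.33). OTX2, which acts upstream of crx, gave 67.9 and 74.4 and then 82.2 and 86.2 (log2 change 0.30, adjusted p = 0.0586). The members that fell were both NR2F6 genes, NR2F6 ENSDARG00000003165 by 0.73 and NR2F6 ENSDARG00000003607 by 0.39, and the latter call was lost without the 48 hpf mutant (adjusted p = 0.156), 48 hpf WT (0.314) or 60 hpf mutant library (0.0949).

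Most genes of the outer segment and its cilium rose, though some cilium genes moved little. Of 46 tested, 40 were higher and 4 lower, with a median of 2.87. Both genes listed as PRPH2, which encode the disc rim protein peripherin, were at 0.15 or less at 48 hpf. PRPH2 ENSDARG00000038018 reached 17.8 and 28.2 and PRPH2 ENSDARG00000014840 reached 16.5 and 27.0, with log2 changes of 8.06 ± 0.25 (SE, adjusted p = 6.14e-12) and 7.35 ± 0.22 (SE, adjusted p = 3.86e-12). PROM1 ENSDARG00000034007, a prominin of nascent discs, rose by 3.33 from 2.90 and 3.76 to 33.3 and 30.8. PDE6D, a carrier of lipid-anchored proteins to the outer segment, rose by 1.42. The falling members were the apical polarity genes crb2a and CRB1, UNC119B and ARL3 ENSDARG00000056794, whose log2 changes lay between -0.88 and -0.53. Without the 48 hpf mutant library only 1 of the 4 was called lower, and DESeq2 did not call ARL3 ENSDARG00000056794 (adjusted p = 0.265).

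Genes of the photoreceptor ribbon synapse rose in the same interval. Of 30 tested genes, 29 were higher and 0 lower, with a median of 1.67. CPLX4 ENSDARG00000059978, a complexin of ribbon synapses, went from 0.31 and 0.36 to 18.1 and 24.1 (log2 change 6.02 ± 0.19 SE, adjusted p = 6.45e-12). The vesicle protein gene sv2ba went from 0.33 and 0.37 to 16.3 and 20.3 (log2 change 5.76 ± 0.17 SE, adjusted p = 3.48e-12). LRIT1 ENSDARG00000099406, a leucine-rich repeat protein of photoreceptor terminals, rose by 4.71 to 11.4 and 14.7. The gene cabp4, for a calcium sensor of the photoreceptor calcium channel, had no count at 48 hpf and stood at 1.46 and 1.48 at 60 hpf, which is at least 9.96-fold higher when 3 counts per library are taken as the limit at 48 hpf. It was chosen after its values were seen. The gene ctbp2a, whose product forms the ribbon, was already at 23.1 and 24.1 and rose by 1.52 to 63.1 and 66.9.

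Most genes of inner retinal neurons rose, and among these lists that of bipolar cells had the highest median. Of 24 bipolar cell genes, 23 were higher and 0 lower, with a median of 2.57. VSX1, a bipolar homeobox gene, was at 57.9 and 84.9 at 48 hpf and at 180 and 179.5 at 60 hpf, a 2.66-fold rise (log2 1.41 ± 0.14 SE, adjusted p = 1.78e-06). GNG13, a G protein gamma subunit of ON bipolar cells, rose by 2.81 from 16.1 and 25.4 to 144 and 131. GNB3, its beta partner, went from 6.95 and 16.9 to 177 and 165 (log2 change 4.02 ± 0.53 SE, adjusted p = 0.0348), a call lost with RLE scaling (adjusted p = 0.0636) and without the 60 hpf mutant library (0.0744). LRIT3 ENSDARG00000055463, which helps to place the TRPM1 channel at ON bipolar dendrites in mammals, rose by 4.68 from 0.12 and 0.15 to 3.35 and 3.53. The ages did not overlap in any of these 4 genes.

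Amacrine, horizontal and ganglion cell genes also moved upward. Of 31 amacrine and horizontal cell genes, 22 were higher and 1, ONECUT1, lower, with a median of 0.74. Of 31 retinal ganglion cell genes, 26 were higher and 3 lower, with a median of 0.87. These counts of higher genes were 14 and 15 without the 48 hpf mutant library. The ONECUT1 fall of 0.52 was not called without the 48 hpf mutant (adjusted p = 0.224), 48 hpf WT (0.0602) or 60 hpf mutant library (0.118). The calcium-binding protein gene calb2b, of amacrine and ganglion cells, went from 20.7 and 24.4 to 223 and 230.0, a 10.5-fold rise (log2 3.39 ± 0.13 SE, adjusted p = 8.59e-11). TFAP2A, an amacrine transcription factor gene, rose by 0.67, a call lost without the 48 hpf mutant library (adjusted p = 0.146). The axon growth gene gap43 rose by 1.24 from 101.5 and 126 to 241 and 275. POU4F3, a Brn3-family ganglion cell factor, rose by 2.80 from 1.14 and 1.85 to 9.65 and 10.2, and its relative POU4F2 by 1.29. The falling ganglion cell members were the adhesion genes alcamb and ALCAM and the synuclein gene SNCG, by 0.97, 0.69 and 0.62. The ALCAM call was lost without the 48 hpf WT library (adjusted p = 0.133) and the SNCG call without the 48 hpf mutant library (0.253).

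Genes of vesicle release and excitability that neurons share were also higher. Of 36 tested, 34 were higher and 0 lower, with a median of 1.41. The synaptophysin gene sypb rose 5.40-fold from 24.3 and 31.2 to 141 and 146. SNAP25 ENSDARG00000058117, a membrane fusion protein, rose by 2.55 on the log2 scale. The sodium pump gene atp1a3a rose by 1.76. Of 21 non-visual opsin genes tested, 16 were higher and 0 lower, with a median of 1.40, and 10 were higher without the 48 hpf mutant library. Among them opn6a rose by 4.40 from 0.65 and 0.86 to 15.46 and 15.03, and the melanopsin gene OPN4 ENSDARG00000007553 by 3.74 from 0.51 and 0.36 to 5.31 and 5.91. The genes opn9 and opn6b rose by 4.41 and 5.31. OPN5 and opn8b, with log2 changes of -0.17 and -0.51, were among the 5 not called.

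Most cell division genes fell. Of 47 DNA replication genes tested, 38 were lower and 0 higher, with a median of -0.51. Of 36 mitosis genes, 25 were lower and 1 higher, with a median of -0.48. PCNA, the replication clamp, had a cRPKM of 665 and 629 at 48 hpf and of 386 and 419 at 60 hpf. Both 60 hpf libraries were below both 48 hpf libraries, and the log2 change was -0.63 ± 0.12 (SE, adjusted p = 0.00065). CDC6, which loads the replicative helicase, fell by 1.11 from 26.0 and 22.5 to 10.4 and 11.2. CCNE2, a cyclin of S phase entry, fell by 1.06, and CENPF, a kinetochore protein of dividing cells, by 1.01. BUB3, a spindle checkpoint gene, was the member that rose (0.46), and its call was lost without the 48 hpf mutant (adjusted p = 0.422), 48 hpf WT (0.0613) or 60 hpf WT library (0.214).

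These cell cycle counts depended on single libraries. Without the 48 hpf mutant library 12 replication and 10 mitosis genes were called lower, and without the 48 hpf WT library 20 and 7. Without the 60 hpf mutant library 20 replication and 17 mitosis genes were called. The PCNA call was lost without the 48 hpf mutant library (adjusted p = 0.0615). No replication gene was called higher in any of these fits.

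In the retinal progenitor list most Delta and Notch genes named fell and eye field factors rose. Of its 30 genes, 11 were higher and 13 lower. DLL1 ENSDARG00000020219, a Notch ligand, fell 4.79-fold, from 52.9 and 49.6 to 9.99 and 10.6 (log2 -2.26 ± 0.13 SE, adjusted p = 3.49e-09). The Delta gene dlb fell by 1.89 from 90.9 and 88.7 to 23.3 and 23.5. DLL1 ENSDARG00000010791 fell by 1.78, and CCND1, the cyclin of progenitor division, by 0.95. DLD, the remaining Delta gene, did not pass the test, at 87.9 and 86.5 and then 100.2 and 99.6 (log2 change 0.25, adjusted p = 0.107). The receptor gene NOTCH3, chosen after its values were seen, fell by 2.00 from 84.8 and 74.9 to 16.2 and 22.8.

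The named members that rose include homeobox genes of the early eye field and the neural stem cell gene SOX2. The gene rx3 rose by 2.04 from 2.84 and 4.93 to 16.01 and 14.01, rx2 by 1.51 and rx1 by 1.19. SIX6 ENSDARG00000031316 rose by 1.43, SIX3 ENSDARG00000058008 by 1.33 and SIX3 ENSDARG00000054879 by 1.202. PAX6 ENSDARG00000103379 and SOX2 rose by 0.52 and 0.50. Their calls were lost without the 48 hpf mutant library (adjusted p = 0.454 and 0.234) and without the 60 hpf WT library (0.097 and 0.0558), and that of SOX2 also without the 48 hpf WT library (0.109). With the 48 hpf mutant library left out, 6 members of the list were called higher. The ages did not overlap in rx1, rx2, rx3 or the SIX3 and SIX6 genes.

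Of 25 neurogenic transcription factor genes, 13 were lower and 8 higher, with a median of -0.37. HES6 ENSDARG00000007097, a factor of cells committing to neurogenesis, fell 3.87-fold from 48.4 and 39.1 to 10.1 and 11.6. SOX11 ENSDARG00000095743, a gene of immature neurons, fell by 0.91 from 353 and 311 to 174 and 166. NEUROD1 and both NEUROD6 genes led the rising members, with NEUROD6 ENSDARG00000040008 up by 2.04 and NEUROD6 ENSDARG00000020794 by 1.52. NEUROD4 rose by 0.42, a call lost in the fit with all 6 libraries (adjusted p = 0.0542). With the 48 hpf mutant library left out 8 members were lower and 4 higher, without the 48 hpf WT library 7 were lower, and without the 60 hpf WT library 5 were higher, against 6 higher and 13 lower with all 6 libraries.

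Müller glia genes were divided. Of 25 tested, 10 were higher and 9 lower, with a median of 0.22. The gene rlbp1a, for the retinaldehyde-binding protein of Müller glia, rose 7.92-fold from 7.75 and 9.31 to 64.5 and 65.2 (log2 2.98 ± 0.14 SE, adjusted p = 2.92e-10). SLC1A2 ENSDARG00000102453, a glutamate transporter, rose by 1.07. GFAP, an intermediate filament gene of glia in retina, brain and spinal cord, was at 48.7 and 27.5 at 48 hpf and at 8.34 and 2.37 at 60 hpf. It fell by 2.96 on the log2 scale (adjusted p = 5.89e-05), a call lost without the genotype term (adjusted p = 0.138) and without the 48 hpf mutant library (0.176). Its order over the 4 libraries was that of the muscle and Hox sums, and the part of tissue outside the retina in this fall was not tested. The lipoprotein gene apoeb and SLC1A3 ENSDARG00000104431, a glutamate transporter gene, fell by 1.09 and 1.02. Without the 48 hpf WT library 5 members were higher, and without the 48 hpf mutant library 5 were lower.

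Visual cycle genes rose in part. Of 43 visual cycle, retinoid and pigment epithelium genes, 18 were higher and 11 lower, with a median of 0.28. RPE65 ENSDARG00000007480, an isomerase of the visual cycle, rose 10.3-fold from 8.64 and 12.8 to 97.6 and 113 (log2 3.37 ± 0.14 SE, adjusted p = 1.07e-10). The other genes under that symbol were divided. RPE65 ENSDARG00000054420, chosen after its values were seen, rose by 1.63. RPE65 ENSDARG00000094752 fell by 0.55 (adjusted p = 0.0081), from 29.5 and 26.8 to 19.8 and 17.4. RGR, an opsin of pigment epithelium and glia, rose by 1.96 from 7.78 and 9.54 to 33.2 and 31.3. RBP4, the retinol carrier, was the most abundant of those not called, at 213 and 234 and then 280 and 207 (log2 change 0.16, adjusted p = 0.365).

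The falling retinoid genes had mixed roles. CYP26A1, CYP26B1 and CYP26C1, which degrade it, fell by 1.04, 0.64 and 1.15. CRABP1 ENSDARG00000035904, a binding protein of retinoic acid, fell by 1.82 from 22.0 and 21.8 to 7.91 and 4.45, a call lost in the fit with all 6 libraries (adjusted p = 0.0579; 0.453 without the 48 hpf mutant library). Another gene under that symbol, CRABP1 ENSDARG00000045926, rose by 0.72, and both RDH10 genes and BCO1, which act in the supply of retinoic acid, fell by 0.66, 0.51 and 0.59. Without the 48 hpf mutant library 5 members of the list were called lower. Of 21 melanin synthesis and melanosome genes, 4 were higher and 7 lower, with a median of -0.09. DCT, a melanin synthesis enzyme, stood at 153 and 154 and then at 152 and 152 (log2 change 0.03, adjusted p = 0.844), and at 297 and 387 at 72 hpf. TYR, the first enzyme of the pathway, fell by 0.81, with the value of the 48 hpf mutant library, 21.7, far above the other 3 (10.9, 9.58 and 7.50). Its call was lost without the genotype term (adjusted p = 0.138) and in the fit with all 6 libraries (0.21). The fit with all 6 libraries called 5 melanin genes lower and 1 higher, and leaving out the 48 hpf mutant, 48 hpf WT, 60 hpf mutant or 60 hpf WT library from it gave 1, 5, 3 or 2 lower and 1, 0, 1 or 2 higher. Without the genotype term 4 were lower, and DESeq2 and both limma fits called 1 higher.

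The lens filled with crystallin messages. Of 39 crystallin genes tested, 37 were higher and 0 lower, with a median of 2.98. Their summed cRPKM went from 9367 and 12002 at 48 hpf to 59310 and 82380 at 60 hpf, and was 57342 and 57484 at 72 hpf. CRYBB1, a beta crystallin, rose 7.70-fold from 1051 and 1266 to 7248 and 10103 (log2 2.94 ± 0.12 SE, adjusted p = 1.03e-10). CRYBA4 rose 6.42-fold from 1194 and 1468 to 6800 and 9855. The gene crybgx, of the beta and gamma crystallin family, rose the most, from 0.58 and 0.94 to 255 and 309 (log2 change 8.58 ± 0.19 SE, adjusted p = 1.44e-13). The gamma M crystallin gene crygm2d11 rose by 5.71 from 3.74 and 8.10 to 252 and 330. The crygm2d genes are near-identical copies, so each one's own value is uncertain. The ages did not overlap in any of these crystallin genes, and at 60 hpf the WT library held more than the mutant library in each.

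Structural genes of lens fibres rose less evenly. Of 27 tested, 17 were higher and 3 lower, with a median of 0.89, and without the 48 hpf mutant library 9 were higher. BFSP2, which forms the beaded filament with BFSP1, rose 10.0-fold from 40.9 and 50.4 to 409.7 and 471. LGSN, which encodes lengsin, a lens relative of glutamine synthetase, rose 19.5-fold from 8.72 and 11.8 to 174 and 209. LIM2 ENSDARG00000015445, a fibre membrane protein, rose by 0.96, a call lost without the 48 hpf mutant library (adjusted p = 0.0604). The ephrin receptor gene epha2a, active in young fibres, fell by 1.95 from 20.8 and 20.1 to 5.18 and 5.01. The RNA-binding protein gene caprin2, at 0.40 or less in every library, also fell, and its call was lost without the 48 hpf WT (adjusted p = 0.442) or 60 hpf WT library (0.163), with DESeq2 (0.174) and in 1 limma fit (0.0617).

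The most strongly falling core clock genes were low at 60 hpf and back near their 48 hpf level at 72 hpf. Of 16 core clock genes tested, 8 were lower and 3 higher, with a median of -0.21. PER1 ENSDARG00000012499, a repressor of the clock, went from a cRPKM of 22.5 and 19.98 to 2.98 and 3.46, and its 72 hpf libraries held 26.5 and 21.8. Its log2 change from 48 to 60 hpf was -2.67 ± 0.14 (SE, adjusted p = 1.44e-09). PER2, which light induces in zebrafish, went from 10.3 and 9.48 to 1.48 and 1.59 and was 10.6 and 9.36 at 72 hpf. CRY1 ENSDARG00000045768, a cryptochrome repressor, went from 16.3 and 15.6 to 2.59 and 2.53 and was 19.9 and 17.1 at 72 hpf. These 2 genes fell by 2.64 ± 0.15 (SE, adjusted p = 2.94e-09) and 2.58 ± 0.14 (SE, adjusted p = 3.04e-09). In all 3 genes the ages did not overlap, and the 72 hpf libraries were close to those of 48 hpf.

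The other falling members fell less. PER3 fell by 1.65, CRY1 ENSDARG00000011583 by 0.77, CRY2 by 0.65 and PER1 ENSDARG00000056885, at 0.40 or less in all 4 libraries, by 0.96. The gene cry3b fell by 0.39. The calls of PER1 ENSDARG00000056885 (adjusted p = 0.258) and cry3b (0.215) were lost without the 48 hpf mutant library, and that of cry3b also without the 48 hpf WT (0.348) or 60 hpf mutant library (0.151). DESeq2 called neither (adjusted p = 0.286 and 0.12), and limma (0.101 and 0.0767) and the fit without the genotype term (0.0692) did not call PER1 ENSDARG00000056885. The activators moved little: BMAL1 ENSDARG00000006791 rose by 0.52, a call lost without the 48 hpf mutant library (adjusted p = 0.326). CLOCK ENSDARG00000003631 gave 10.7 and 8.99 and then 11.7 and 11.7 (log2 change 0.31, adjusted p = 0.0768). BMAL1 ENSDARG00000035732, CLOCK ENSDARG00000011703, bmal2 and npas2 were not called, at log2 changes from -0.02 to 0.39. The cryptochrome genes cry3a and cry4 rose by 0.64 and 0.69, and the cry3a call was lost without the 48 hpf mutant library (adjusted p = 0.146). Leaving out the 48 hpf mutant library left 1 core clock gene higher, and leaving out the 60 hpf mutant library gave 6.

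**Figure D3:**
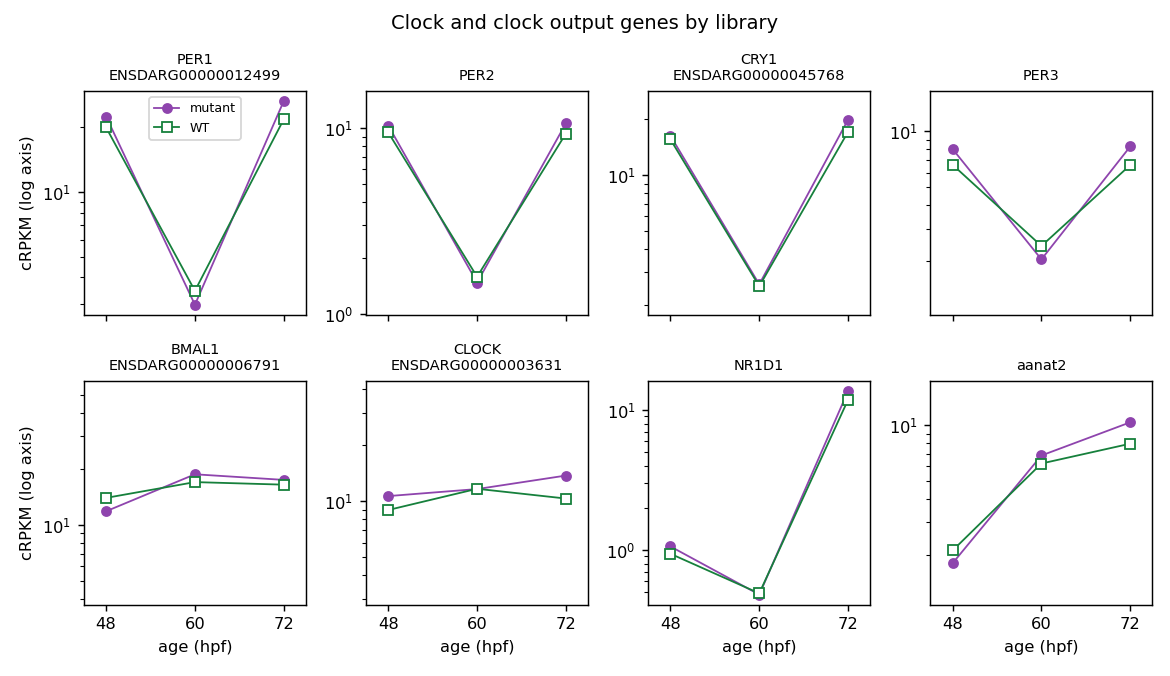
cRPKM (log axes) of 8 clock and clock output genes in each mutant (filled circles) and WT (open squares) library at 48, 60 and 72 hpf. PER1, PER2, CRY1 and PER3 dip at 60 hpf in both genotypes, BMAL1 and CLOCK stay within a narrow range, and NR1D1 is low at 48 and 60 hpf and high at 72 hpf.

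Clock output and light-responsive genes went both ways. Of 30 tested, 11 were higher and 12 lower, with a median of -0.12. The light-induced photolyase gene cry5, which repairs ultraviolet damage to DNA, fell by 3.09 ± 0.24 (SE, adjusted p = 1.06e-07), from 4.49 and 4.13 to 0.43 and 0.54. DDB2, a damage recognition gene, fell by 1.43, cry-dash by 1.43, and XPC by 0.42. The XPC call was lost without the 48 hpf mutant (adjusted p = 0.314), 48 hpf WT (0.112) or 60 hpf mutant library (0.365) and with DESeq2 (0.0912). Clock output bZIP and repressor genes fell as well, tefa by 1.24, tefb by 0.85, ciarta by 1.12, BHLHE40 by 0.76, NR1D2 by 0.70 and NR1D1 by 0.98. NR1D1 was low at both ages, at 1.06 and 0.94 and then 0.48 and 0.49, and stood at 13.7 and 11.8 at 72 hpf. Its call was lost with DESeq2 (adjusted p = 0.0792). The NR1D2 call was lost without the 48 hpf mutant library (adjusted p = 0.0592). The genes cipca and cipcb fell by 0.82 and 0.38, calls lost without the 48 hpf mutant library (0.123 and 0.35), and that of cipcb also without the 48 hpf WT (0.111) or 60 hpf mutant library (0.105). DESeq2 called neither (0.0954 and 0.0984), and limma did not call cipcb (0.0661 and 0.0696).

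Against these falls, the list's 3 melatonin synthesis genes and 3 ROR genes rose, while RORB, of the fate list, did not (log2 change 0.04, adjusted p = 0.803). The gene aanat2, for the enzyme that sets melatonin rhythm in the fish pineal and retina, rose 3.45-fold from 1.81 and 2.12 to 6.87 and 6.22. ASMT and asmt2, for the last enzyme of the pathway, rose by 1.51 and 0.62, calls lost without the 48 hpf mutant library (adjusted p = 0.0682 and 0.12), and that of asmt2 also without the 48 hpf WT (0.0826) or 60 hpf mutant library (0.104). The nuclear receptor gene rorab rose by 1.91 from 11.3 and 10.6 to 41.8 and 37.6, rorcb by 1.11 and rorca by 0.64, the last lost without the 48 hpf mutant (0.0506) or 48 hpf WT library (0.127). The genes nr1d4a, nr1d4b, dbpa, nfil3-6 and hlfa rose by 2.14, 1.12, 1.65, 1.37 and 1.00. BHLHE41, NFIL3, nfil3-5, dbpb, HLF and nr1d2a were not called, at log2 changes from -0.20 to 0.39. The genes ciartb and THRB are among those whose direction differed between genotypes.

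Among splicing regulators, neuronal factors were among those that rose and PTBP1 genes among those that fell. Of 40 tested, 15 were higher and 7 lower, with a median of 0.20. RBFOX1, a neuronal splicing factor, rose 3.06-fold from 17.5 in both libraries to 55.3 and 48.3. KHDRBS2, of the STAR family of neuronal splicing factors, rose by 1.53. PTBP1 ENSDARG00000031907, which represses neuronal exons in dividing cells, fell 2.22-fold from 53.3 and 40.9 to 22.0 and 18.7, and PTBP1 ENSDARG00000019362 by 0.98. The other members called lower were rbfox1l, msi1a, PTBP2 ENSDARG00000015901, khdrbs1a and elavl1a, by 0.76, 0.68, 0.53, 0.52 and 0.40. Not every neuronal factor rose: NOVA1 and ELAVL3 were not called, at log2 changes of -0.15 and -0.07. NOVA1 was chosen after its values were seen. The mutated gene, srrm3, gave 1.76 and 1.09 and then 2.36 and 2.06, with both libraries of 60 hpf above those of 48 hpf. It rose by 0.71 ± 0.21 (SE, adjusted p = 0.0145), a call lost without the 48 hpf mutant (adjusted p = 0.108), 48 hpf WT (0.0901) or 60 hpf WT library (0.254) and with DESeq2 (0.067). Whole-gene values do not test a mutation inside the eMIC domain. Its paralog srrm4 gave 2.58 and 2.37 and then 1.76 and 2.36, and was not called (log2 change -0.22, adjusted p = 0.474). Members called numbered 9 higher and 3 lower without the 48 hpf mutant library, and 4 lower without the 48 hpf WT or 60 hpf mutant library.

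Chaperone genes were among the stress genes that rose. Of 39 immediate early and heat shock genes, 22 were higher and 6 lower, with a median of 0.60. HSP90AA1 rose 6.52-fold from 15.2 and 16.4 to 94.2 and 105, and encodes a cytosolic chaperone. EGR3 and NPAS4 ENSDARG00000055752, genes induced by neuronal activity, rose by 1.89 and 2.02. FOSL1 and FOSB, wound-induced AP-1 genes, fell by 2.53 and 2.25. Neither group moved as 1, since the immediate early gene NR4A1 fell by 1.78 (adjusted p = 3.51e-06) and the AP-1 genes FOSL2, JUND and JUN rose by 1.17, 0.71 and 0.37. The remaining members called lower were KLF4, DUSP1 and HSPB8, by 0.995, 0.71 and 0.60. The FOSL1 call was lost without the genotype term (adjusted p = 0.148), in 1 limma fit (0.0848) and without the 48 hpf mutant (adjusted p = 0.0781), 60 hpf WT (0.451) or 60 hpf mutant library (0.472), and the FOSB call without the 48 hpf mutant (0.195) or 60 hpf mutant library (0.0563). With the 48 hpf mutant or 60 hpf mutant library left out, 2 and 3 members of the list were lower. Of 35 unfolded protein and integrated stress response genes, 10 were higher and 5 lower, with HSPA5, the chaperone BiP, up 2.48-fold from 102 and 134 to 283 and 276. Leaving out the 48 hpf mutant library left 5 higher and 3 lower, and leaving out the 48 hpf WT or 60 hpf WT library left 2 or 3 lower.

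Of 43 glycolysis and creatine kinase genes, 22 were higher and 9 lower. CKMT2 ENSDARG00000069615, a mitochondrial creatine kinase, rose by 5.65 from 0.83 and 4.04 to 56.9 and 161, a call lost without the 60 hpf WT library (adjusted p = 0.0878). GAPDHS, listed as a glycolytic dehydrogenase, rose 2.31-fold from 348 and 372 to 818 and 784. The falling members were led by the muscle isoforms PFKM ENSDARG00000060797, by 2.36, and ckma and ckmb, by 1.89 and 1.78. Both creatine kinase calls were lost in the fit with all 6 libraries (adjusted p = 0.131 and 0.144) and without the genotype term (0.267 and 0.291), and the PFKM ENSDARG00000060797 call without the genotype term (0.109). The fit with all 6 libraries called 5 members lower, and the one without the genotype term 3. The CKMT2 call was also lost without the genotype term (0.0923).

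Ribosomal protein genes were called lower more often than higher. Of 76 cytosolic ribosomal protein genes, 4 were higher and 24 lower, with a median of -0.20. Their summed cRPKM was 155279 and 191559 at 48 hpf and 134203 and 150887 at 60 hpf, and the nearest libraries of the ages, at 155279 and 150887, were closer than the 2 libraries of either age. RPLP0, a protein of the ribosomal stalk, fell by 0.69 from 4965 and 6937 to 3608 and 3385. With the 48 hpf mutant, 48 hpf WT or 60 hpf WT library left out, 9, 1 or 12 of these genes were called lower, and with any library left out 1 or 2 were higher. Without the genotype term 12 were lower and 1 higher. The RPLP0 call was lost without the 48 hpf WT library (adjusted p = 0.0756). Of 29 p53 pathway and apoptosis genes, 4 were higher and 6 lower (2 higher without either 48 hpf library), and BTG2, an antiproliferative target of p53, fell by 1.096. Of 31 sterol and fatty acid synthesis genes, 12 were higher and 7 lower. Leaving out the 48 hpf mutant, 48 hpf WT or 60 hpf WT library, 3, 2 or 4 of them were lower, and without the 48 hpf WT library 7 were higher. DESeq2 called 3 lower.

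Most skeletal muscle genes fell between the ages. Of 64 muscle genes, 40 were lower and 8 higher, with a median of -1.25, and none was at 0 in any of the 4 libraries. The muscle creatine kinase gene ckma had a cRPKM of 1160 and 573 at 48 hpf and of 390 and 115 at 60 hpf. The parvalbumin gene pvalb2 gave 2817 and 2046 and then 1413 and 264, and was not called (log2 change -1.92, adjusted p = 0.343). At each age the mutant library held more than the WT library. The fit with all 6 libraries called 20 muscle genes lower and one without the genotype term 5. From the 6-library fit, leaving out the 48 hpf mutant library gave 14 lower and leaving out the 48 hpf WT library 37, while leaving out a 60 hpf library gave 24 (mutant) or 22 (WT).

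Some genes on the muscle list rose against this fall. The troponin C gene tnnc2.1 went from 0.09 in both libraries to 10.9 and 18.1 (log2 change 7.27 ± 0.39 SE, adjusted p = 2.24e-09). TNNI2 ENSDARG00000045592, a troponin I gene, rose by 4.47 to 7.91 and 9.74, TNNI2 ENSDARG00000005841 by 1.96 and TNNI2 ENSDARG00000035958 by 1.67. MYBPC1, a slow-fibre myosin-binding protein in mammals, rose by 3.93, and the slow myosin gene smyhc2 by 2.22. In these 6 genes both 60 hpf libraries were above both 48 hpf libraries, at sums of the muscle list that ran the other way.

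**Figure D4:**
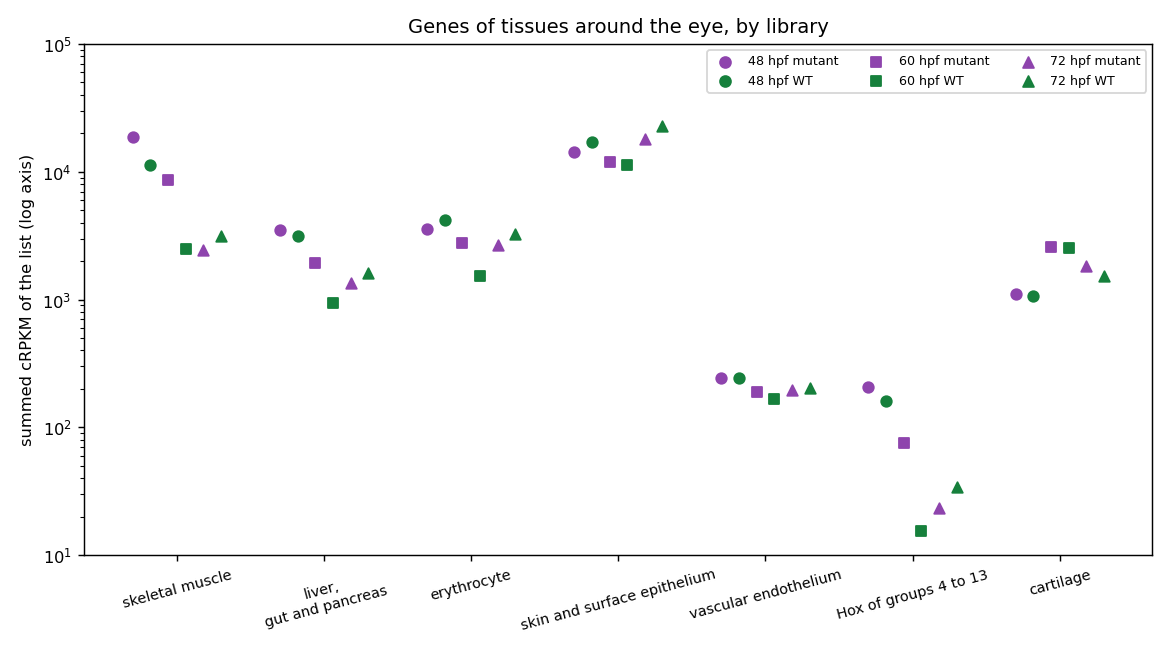
Summed cRPKM (log axis) of 7 lists of tissues around the eye in each library, with age by symbol and genotype by colour. Muscle, Hox and liver, gut and pancreas sums are highest at 48 hpf and lowest in the 60 hpf WT or 72 hpf libraries, and the cartilage sum is highest at 60 hpf.

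Of 29 Hox genes tested, 17 were lower and 0 higher, with a median of -2.03. The gene hoxb8b, a trunk Hox gene, fell by 3.91 ± 0.35 (SE, adjusted p = 5.3e-07) from 7.02 and 3.67 to 0.64 and 0.09. Of the 37 Hox genes listed, 3 and 7 were at 0 at 48 hpf and 5 and 9 at 60 hpf. Lower Hox genes numbered 11 without the genotype term, 26 without the filter or in the non-robust fit, 17 with all 6 libraries, 11 without the 48 hpf mutant library and 25 without the 60 hpf mutant library. Of 28 liver, gut and pancreas genes, 20 were lower and 5 higher, with a median of -1.36. The pancreatic somatostatin gene sst2 fell by 5.83 from 13.1 and 23.4 to 0.44 and 0.15. Their summed cRPKM was 3504 and 3122 at 48 hpf and 1924 and 942 at 60 hpf. Higher genes numbered 3 with all 6 libraries, 2 without the 60 hpf WT library, 2 without the genotype term and 8 without the filter. The liver genes fabp10a and uox were highest in the 60 hpf WT library, at 22.4 and 7.20 against 2.31 and 1.81 in its mutant sibling. Both calls were lost without the genotype term (adjusted p = 0.28 and 0.266) and in the fit with all 6 libraries (0.3 and 0.379), and that of fabp10a with DESeq2 (0.0625) and limma (0.3 and 0.209).

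Genes for hatching enzymes, which the transient hatching gland releases to dissolve the egg membrane, were among the largest falls. The hatching enzyme gene he1.1 went from 186 and 180 to 8.85 and 1.21 (log2 change -5.24 ± 0.81 SE, adjusted p = 0.0488), a call lost with RLE scaling (adjusted p = 0.0904), in both limma fits (0.0792 and 0.143) and without the 48 hpf mutant library (0.27). Its relative he1.2 fell by 4.71 from 34.3 and 47.9 to 2.33 and 0.59. The uncharacterised gene zgc:174153 went from 16.4 and 28.0 to 0 in both 60 hpf libraries, at least 42.8-fold lower when 3 counts per library are taken as the limit, though DESeq2 did not call it (adjusted p = 0.0602). The genes zgc:174855 and si:dkey-26g8.5 fell by 7.12 and 4.45. si:dkey-239j18.3 went from 124 and 154 to 4.77 and 0, values that rest on only 27 and 35 counts and then 1 and 0. ENSDARG00000096563, also among the largest falls, rests on 17 and 24 counts and then 1 and 0. In limma with the smaller pseudocount he1.2 (adjusted p = 0.0933), zgc:174855 (0.182), si:dkey-26g8.5 (0.103), si:dkey-239j18.3 (0.272) and ENSDARG00000096563 (0.125) were not called, nor was si:dkey-239j18.3 with the larger (0.123). The other falls named by size were si:ch211-57n23.4, by 4.99, ENSDARG00000096563, by 4.90, and STAR, a steroid transport gene, by 4.05, a call lost without the 48 hpf mutant library (adjusted p = 0.262).

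Blood genes were lower at 60 hpf. Of 22 erythrocyte genes, 15 were lower and 2 higher, with a median of -1.08. The embryonic beta globin gene hbbe3 fell 21.4-fold, from 601 and 654 to 27.7 and 28.6, and was 51.8 and 47.2 at 72 hpf. Its log2 change was -4.42 ± 0.14 (SE, adjusted p = 8.29e-12). The alpha globin gene hbae3 gave 2400 and 2899 and then 2346 and 1214, without a call (log2 change -0.59, adjusted p = 0.359). Globins are similar copies, so reads could have been shared. Of 36 microglia and other leukocyte genes, 13 were lower and 2 higher. The interleukin gene il1b fell by 3.89 and the lysozyme gene lyz by 1.32, from 157 and 224 to 74.6 and 69.7. Without the 60 hpf mutant library 23 leukocyte genes were lower and 0 higher, without the 60 hpf WT library 8 lower, and without the 48 hpf mutant library 0 higher, as with DESeq2.

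Skin and vessel genes were called lower more often than higher. Of 35 skin and surface epithelium genes, 17 were lower and 5 higher, with a median of -0.39. The annexin gene anxa1c fell by 1.46 from 215 and 260 to 90.4 and 76.2. Lower genes numbered 11 without the 48 hpf WT library, and without the 48 hpf mutant library 3 were higher. Of 29 vascular endothelium genes, 16 were lower and 3 higher. CLDN5 ENSDARG00000043716, a tight junction gene of vessels, fell by 1.65 from 29.2 and 24.0 to 7.28 and 9.09, and plvapb, of fenestrated vessels, by 1.27. Vessel genes called lower numbered 10 and 9 without the 48 hpf mutant or 48 hpf WT library, and 1 was higher without the former. Of 30 periocular mesenchyme and connective tissue genes, 8 were higher and 4 lower, with a median of 0.10. KERA, a corneal proteoglycan, fell by 0.87. Higher genes numbered 5 with all 6 libraries and 2 without the 48 hpf mutant library, and without the 48 hpf WT library 2 were lower. Of 34 brain regional patterning genes, 7 were higher and 12 lower, with a median of -0.16. Lower genes numbered 5 and 7 without the 48 hpf mutant or 48 hpf WT library, and 3 were higher without the former.

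Most cartilage genes rose. Of 32 tested, 19 were higher and 7 lower, with a median of 0.90, and their summed cRPKM went from 1103 and 1060 to 2575 and 2532. MATN1, the cartilage matrix protein matrilin, went from 0.58 and 0.65 to 279 and 324 (log2 change 8.98 ± 0.18 SE, adjusted p = 8.71e-14). The collagen gene COL2A1 ENSDARG00000069093 rose 3.75-fold from 156 and 166 to 587 and 576, and the aggrecan gene acana by 3.61 from 0.72 and 0.68 to 8.72 and 7.79. In these 3 genes the ages did not overlap. MATN3 ENSDARG00000069245, a related matrilin, fell by 1.77 from 11.1 and 7.04 to 4.58 and 1.25. Cartilage genes called lower numbered 3 without the 48 hpf mutant library and 3 without the genotype term, and the latter fit lost the MATN3 ENSDARG00000069245 call (adjusted p = 0.258). Other large risers were mapkapk2b, a stress-activated kinase gene, at 0 and 0.04 and then 6.68 and 6.56, si:dkey-57a22.15, at 0.80 and 1.88 and then 308 and 344, and si:ch211-196c10.13, at 0.03 and 0.06 and then 12.1 and 10.9.

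The change between the ages was also set out for each genotype. Over 11714 genes with a mean cRPKM of at least 5 at either age, the log2 ratio of 60 over 48 hpf in mutants and that in WT had a Pearson correlation of 0.910. This is a description across genes, which are not independent, and both ratios share the ages. Of 5594 such genes called in the joint test, 1 did not move the same way in both genotypes, the lens membrane gene lim2.1. That test fits 1 change to both genotypes, so a gene moving in opposite directions is seldom called. The count is therefore largely set by the selection and does not measure how far the genotypes agree. With 1 library per genotype and age, a difference between genotypes in the change has no residual degrees of freedom and was not tested.

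**Figure D5:**
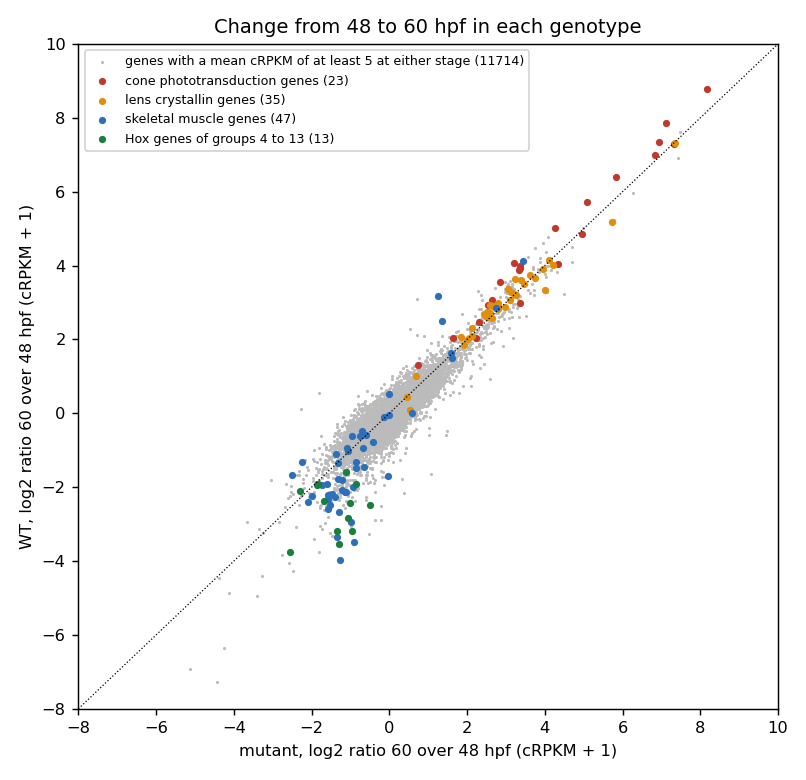
Log2 ratio of 60 over 48 hpf (cRPKM + 1) in mutants (x axis) and in WT (y axis) for 11714 genes, with 4 lists coloured and the dotted line marking equal change. The WT ratio was above the mutant ratio in 18 of 23 cone genes and 20 of 35 crystallins, and below it in 31 of 47 muscle genes and 12 of 13 Hox genes. The same share over all 11714 genes was not counted, so these counts do not set a list apart. They were not tested.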

How the data were processed

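Polyadenylated RNA of pooled eyes was sequenced in 1 library per genotype and age. The authors deposited for each gene an unscaled read count and a cRPKM, their RPKM-type value scaled by length and depth. The length is not the full gene length for every gene. In the 48 hpf mutant library 27 counts gave 124 for si:dkey-239j18.3 and 28 counts gave 161 for hbae1.2, while 40288 counts gave 665 for PCNA. Few counts can thus give such genes a high level, which enters the list sums and the cRPKM limit of 5 used to name genes. Genome build danRer10 comes from the submitters' processing notes. How reads were aligned and counted, whether strand was used, and what the letter c stands for: not given in the sources used here. Overlapping or antisense genes can therefore not be told apart. Of 31848 identifiers, 29387 had values and 25682 (87.4%) matched a symbol, often in its human form. A symbol shared by several genes is printed with its identifier.

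Counts were tested with edgeR 4.0.16 in R 4.3.3: TMM, filterByExpr, a robust quasi-likelihood fit of genotype and age over the 4 libraries, 1 residual degree of freedom, and Benjamini-Hochberg adjustment over all genes at 0.05. SE is the absolute log2 change over the square root of F. Levels in single libraries and ratios within a genotype (pseudocount 1) use cRPKM. Lower limits of folds and counting intervals cover counting error only. Alternatives were RLE scaling, no filter, no genotype term, a non-robust fit, a fit with the 72 hpf libraries added, leaving out each library within that fit, DESeq2 1.42.0, and limma 3.58.1 on log2(cRPKM + 1) and log2(cRPKM + 0.1). Centring on the median gene was added after seeing the data. When a library is left out, the lone library of its age is assumed to vary like the others.

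Members of 38 gene lists, and the lists themselves, were chosen with earlier results of these data known. Lists are described by counts and medians only. Genes were named by rule: among called genes with a mean cRPKM of at least 5 at the higher age and 1 direction in both genotypes, the 12 with the largest rise and the 12 with the largest fall; in each list the 4 highest by level, the 3 lowest by p and members called against the majority; every clock, fate and opsin gene tested; and srrm3 and srrm4. Other tested genes are marked as chosen after their values were seen. A few genes are not reported here.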

Additional observations from a re-analysis of the deposited data

Results flagged for a closer look

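A few named genes moved in opposite directions in the genotypes, with log2(cRPKM + 1) ratios at least 0.5 apart. With 1 library per genotype and age these differences were not tested. RBP4, the retinol carrier, had a log2 ratio of 60 over 48 hpf of 0.39 in mutants and -0.18 in WT. THRB, the thyroid hormone receptor of red cones, had 0.17 in mutants and -0.94 in WT. The clock output gene ciartb had -0.52 in mutants and 0.03 in WT. The lens membrane gene lim2.1 had 0.69 in mutants and -0.004 in WT, and its rise in the joint test was lost in the fit with all 6 libraries (adjusted p = 0.115), without the genotype term (0.0555), with DESeq2 (0.0884) and in both limma fits (0.14 and 0.148).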

How the results depend on the processing

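With genotype as a term the main fit already compares the ages within each genotype, and with 1 library per genotype and age no further pairing was possible. With the 72 hpf libraries added, 4441 genes were higher and 4289 lower. With 1 library left out of that fit, genes higher numbered 2674 to 4378 and genes lower 1761 to 4130, with the lowest counts without the 48 hpf mutant library and the next without the 48 hpf WT library (3315 and 2413). DESeq2 called 3583 genes higher and 2786 lower, and the other settings lay within 1.5 times the counts of 4840 and 4197. Of 435 named genes, 0 of those called changed direction in the 12 settings. Calls were lost by 131 of them without the 48 hpf mutant library, 84 without the 48 hpf WT, 59 without the 60 hpf WT and 55 without the 60 hpf mutant library, 45 with DESeq2, 42 without the genotype term, 33 with the 72 hpf libraries added, and 29 or fewer in each of the other settings. Centring on the median gene, chosen after seeing the data, shifts every log2 change by the median of -0.0122. The causes were not tested. With 2 libraries an age the precision of single genes rests on the shared error estimate.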
